A study of Ovis aries with 49 samples.

Results

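Cytokine, interferon and NF-kappaB signalling was followed in 5 adipose depots of young lambs through its member probe sets, 101 near the lowest signal and 10 above it in some group, of the 10273 in the deposited table. A probe set was a member when its gene symbol was IL followed by a digit, or began with CCL, CCR, CXCL, CXCR, TNF, IRF, STAT followed by a digit, JAK, SOCS, TLR, NFKB, TRAF or IFN. All but 6 members carry the symbol of 1 gene, 5 belong to antisense or divergent transcripts and 1 carries several symbols, so that no gene was named from it. No symbol occurs on more than 1 member. The symbols of 97 member genes occurred in the sheep gene annotation used here and 8 did not. These were CXCL2, CXCL6, CCL18, CCR1, CXCR1, TNFRSF14, TNFRSF10C and TNFRSF10D. A missing symbol does not show whether sheep have the gene under another name. The rule goes by name, so it also takes a few genes, such as IRF2BP2, IRF2BPL, JAKMIP2 and TRAF3IP1, that share a prefix with a family without being its receptors, kinases or factors.

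Lamb adipose tissue RNA was hybridised to a human expression array. The groups were epicardial, omental, perirenal, sternal and subcutaneous fat at 28 days of age, with 5 arrays each, and the same depots at 7 days, with 5 arrays each except subcutaneous fat with 4. Per the labels, 1 twin of each mother was taken at each age. The diet of the mothers is not in the labels used here, every title holds an unexplained letter C, and the shared sample description gives an age range that differs from the ages used here. The lambs carried no transgene or treatment of their own in the labels. Each array has a letter in place of the replicate number of its title, from H on for the older lambs and before H for the younger. The labels do not say that a number is an animal, so the p-values below measure the spread between these samples, and no number occurs at both ages. The main fits treat arrays that share a number, and twins of 1 mother, as independent.

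Cytokines are secreted signals that bind receptors on the cell surface. Many of these receptors have no enzyme of their own and carry Janus kinases (JAK), which phosphorylate STAT transcription factors, while suppressors of cytokine signalling (SOCS) damp the same route. Toll-like and TNF receptors act through TRAF adaptors and free NF-kappaB from its inhibitors, the IkappaB proteins, and interferon regulatory factors (IRF) carry the response to interferons and microbial nucleic acids. In adipose tissue these routes are known from resident immune cells, from the response to obesity and from adipocytes themselves, in which JAK2 also carries the signal of growth hormone.

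Most members gave little signal. Values are GCRMA summaries on the log2 scale and ran from 2.49 to 14.04 over the whole table, with 82.7% of all values below 4. A member was taken to lie near the lowest signal where all 10 group means were below 4, which held for 101 members. The other 10, 9.01% of all members, reached a group mean of 4 in some group, against 21.33% of all probe sets, and 94 members had no single array at 4 or more. On 60 members at least 25 of the 49 arrays shared 1 value to within 1e-05, as they did on 44.51% of all probe sets. A low value can come from little RNA or from sheep RNA that binds human probes poorly, and these cannot be told apart in such arrays. Nor can fewer cells of a type be told apart from less RNA per cell in whole tissue. Signals of different probe sets are not compared with each other as amounts of RNA.

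**Figure D1:**
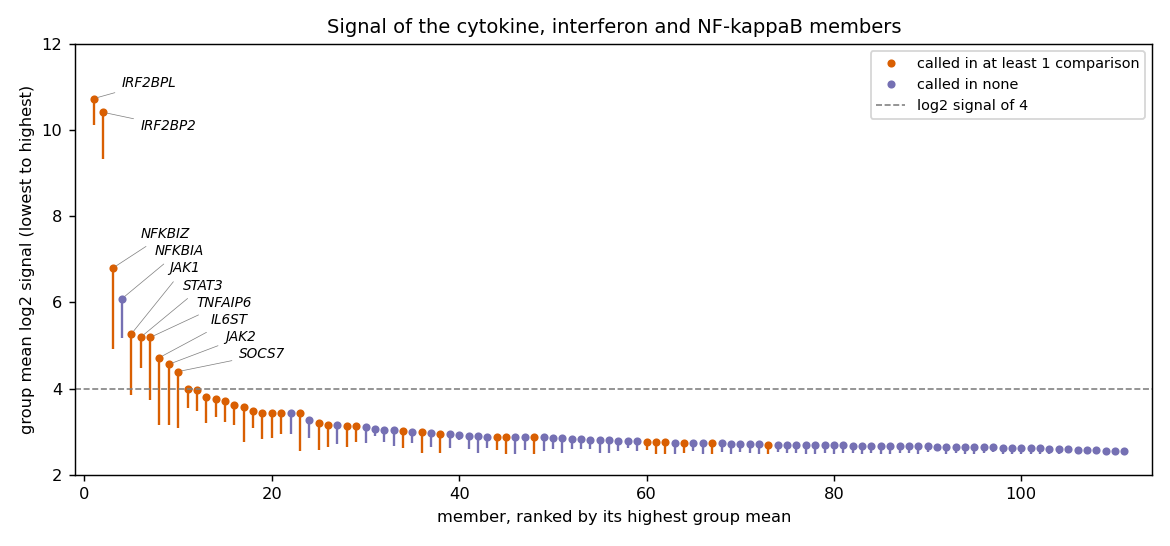
Lowest to highest group mean log2 signal (vertical axis) of each member (horizontal axis, ranked by the highest group mean, shown as a point). The dashed line marks 4, above which 10 named members reach, and the colours show whether a member was called in at least 1 of the comparisons (37 members) or in none (74 members).

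The members near the lowest signal in all groups cover nearly all ligands and receptors. Among the interleukins and their receptors this held for 36 of 37: IL1A, IL1B, IL1RN, IL1R1, IL1R2, IL1RL1, IL1F10, IL36A, IL36RN, IL37, IL18BP, IL18RAP, IL2RB, IL15, IL21R, IL9R, IL5, IL13, IL13RA1, IL31RA, IL6R, IL11, IL10, IL10RB-DT, IL12A, IL12A-AS1, IL12RB1, IL12RB2, IL23A, IL23R, IL17C, IL25, IL17RA, IL17RC, IL17RD and IL34. All 15 chemokine ligands and receptors were near it as well, namely CCL5, CCL18, CCL19, CCL24, CCL26, CCL28, CXCL2, CXCL6, CXCL9, CXCL14, CCR1, CXCR1, CXCR2, CXCR4 and CXCR5. So were 19 of 20 members of the TNF group, which comprised TNFSF10, TNFSF15, TNFRSF1B, TNFRSF4, TNFRSF8, TNFRSF9, TNFRSF10C, TNFRSF10D, TNFRSF10B-AS1, TNFRSF11B, TNFRSF12A, TNFRSF13C, TNFRSF14, TNFRSF14-AS1, TNFRSF21, TNFRSF25, TNFAIP1, TNFAIP8L1 and the probe set with several symbols. The 3 interferon receptor chains IFNAR1, IFNAR2 and IFNGR2 had highest group means of 2.63, 2.56 and 2.70.

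Further along the route the same held for all 4 Toll-like receptors (TLR3, TLR4, TLR7 and TLR10) and for all 7 TRAF members (TRAF3, TRAF4, TRAF6, TRAFD1, TRAF3IP1, TRAF3IP3 and TRAF3IP2-AS1). It held for 6 of 8 IRF members (IRF1, IRF2, IRF3, IRF8, IRF9 and IRF2BP1), 2 of 3 STAT members (STAT5B and STAT6), 2 of 4 JAK members (JAK3 and JAKMIP2), 5 of 6 SOCS members (SOCS1, SOCS2, SOCS3, SOCS5 and SOCS6) and 2 of 4 NFKB members (NFKBIB and NFKBIL1). The 10 members above it in some group were therefore mainly inside the cell: JAK1, JAK2, STAT3, SOCS7, NFKBIA, NFKBIZ, IRF2BP2 and IRF2BPL, with the receptor chain IL6ST and the secreted protein TNFAIP6. Of these, NFKBIA, NFKBIZ, STAT3, IRF2BP2 and IRF2BPL stayed at 4 or more in all 10 groups.

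The labelled tissue was checked against marker genes. Of 5 adipocyte markers measured, DGAT2 was at 4 or more on all 49 arrays, while LPL reached 4 on 1 array and PPARG, FABP4 and CIDEC on none. None of 4 macrophage markers (TYROBP, MSR1, LYZ and AIF1), 8 lymphocyte markers and 6 endothelial markers reached a group mean of 4. Muscle genes did. The creatine kinase CKM was above 4 on 18 arrays, of which 9 were epicardial, 4 at 28 days (2.76 to 10.53 over the 5 arrays) and 5 at 7 days (8.06 to 11.63). Set against the other depots at 7 days, epicardial CKM was higher by 5.75 (limma adjusted p = 0.00298), and heart muscle genes reached 4 in epicardial fat too. At 7 days the 5 heart muscle markers averaged up to 10.90 on an epicardial and up to 7.38 on a subcutaneous array. On a sternal array at 28 days they averaged up to 6.74. The other 9 arrays with CKM above 4 were sternal or subcutaneous. The sternal ones were J, N and O at 28 days and D at 7 days. The subcutaneous ones were J and M at 28 days and A, E and G at 7 days. Fits without the CKM arrays leave out these 9 and keep the epicardial ones. Of 6 fibroblast markers COL1A1, COL1A2, COL3A1, PDGFRA and DCN were at 4 or more on all 49 arrays and LUM on none. At 28 days 5 of these 6 were called higher in subcutaneous fat, 3 in sternal fat and 1 in omental fat. That compares with 2.58%, 1.65% and 4.76% of all probe sets. In perirenal fat 5 were called lower, against 0.487% of all probe sets. At 7 days 3 were called higher in subcutaneous and 2 in omental fat, against 0.827% and 0.565% of all probe sets. Called lower were 4 in perirenal, 2 in sternal and 1 in epicardial fat, against 0.535%, 0.925% and 0.720%. Between 28 and 7 days 5 were called higher in sternal fat, against 2.47% of all probe sets. In perirenal and subcutaneous fat it was 2 each, against 6.23% and 7.68%, and in omental and epicardial fat 1 each, against 13.5% and 4.21%.

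Sternal fat at 28 days had the lowest mean over all probe sets, 3.27, where the other depots of that age had 3.40 to 3.42 and the 7 day groups 3.29 to 3.36.

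At 28 days of age 16 members, 14.4%, differed between the 5 depots in limma's F test at an adjusted p of at most 0.05, while 20.0% of all probe sets did. At 7 days it was 5 members, 4.50%, against 8.16% of all probe sets. The difference between the shares was not tested. The members called at 28 days were JAK1, JAK2, STAT3, SOCS1, SOCS7, IL6ST, IL18RAP, IL23R, IL12A-AS1, CXCR4, TLR7, TNFAIP6, TNFRSF21, IRF1, IRF2BP2 and IRF2BPL, and those at 7 days were SOCS2, IRF9, NFKBIL1, IL15 and IRF2BPL.

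Omental fat at 28 days differed from the other depots in the kinases JAK1 and JAK2 and in the shared receptor chain IL6ST, with overlap between the arrays for JAK2 and IL6ST. JAK1, which serves the interferon receptors and the receptors built on IL6ST, had log2 signals of 4.21, 3.61, 4.08, 3.80 and 3.55 in omental arrays I, J, M, N and O, against 4.25 to 5.55 with a median of 4.86 in the 20 arrays of the other depots. All 5 omental arrays lay below every other array. The difference was -1.05 (SE 0.09, limma adjusted p = 8.51e-07) and stayed between -1.14 and -0.98 with any 1 array left out. JAK1 was the only member without overlap here, as were 0.136% of all probe sets.

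JAK2, the kinase of the growth hormone and interferon gamma receptors, went the other way in the same arrays. Its log2 signals were 5.01, 4.60, 4.14, 4.53 and 4.55 in omental arrays I, J, M, N and O, against 2.88 to 4.57 with a median of 3.89 in the other 4 depots at 28 days. Omental arrays I and J lay above every other array, and the rest overlapped with subcutaneous fat, whose 5 arrays lay between 4.13 and 4.57, or with the highest epicardial and perirenal arrays, at 4.26 and 4.16. The difference for JAK2 was 0.76 (SE 0.13, limma adjusted p = 0.000766). This contrast holds the low sternal arrays, with a mean of 3.15, on its other side. IL6ST, also called gp130, is the chain that IL6, IL11, LIF and oncostatin M receptors share. It had 4.59, 3.90, 4.14, 4.07 and 4.30 in those omental arrays, against 2.95 to 4.23 with a median of 3.29 in the other depots. Outside omental fat IL6ST passed 3.90 in subcutaneous arrays I, J and M, and its omental difference was 0.80 (SE 0.12, limma adjusted p = 0.000348).

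Omental fat at 28 days had 6 members called, 5 higher and 1 lower, where 4.76% of all probe sets were called higher and 0.360% lower. The share of calls that were higher was 93% over all probe sets as deposited and 75.9% after quantile normalization, after which 4 members were higher and 1 lower. Besides JAK1, JAK2 and IL6ST these were CXCR4, TLR7 and SOCS7. CXCR4, the receptor of the chemokine CXCL12, had 3.08, 3.77, 2.68, 3.47 and 4.12 in omental arrays I, J, M, N and O, against 2.52 to 3.22 with a median of 2.58 in the other depots. Only array O passed 4, and arrays I and M lay within the range of the other depots. The difference for CXCR4 was 0.70 (SE 0.14, limma adjusted p = 0.0046) and for TLR7, which senses single-stranded RNA in endosomes, it was 0.55 (SE 0.11, adjusted p = 0.00257). TLR7 had 3.36, 3.71, 2.89, 3.43 and 2.60 in the omental arrays, against 2.49 to 3.08 elsewhere. Marker genes were summed in the same arrays: the 4 macrophage markers summed to 11.42 to 12.07 on the log2 scale there, against 11.12 to 12.18 over the other depots of that age, the 8 lymphocyte markers to 21.81 to 23.12, against 21.11 to 22.73, and the 4 mesothelial markers to 13.70 to 16.54, against 10.58 to 15.09. None of the macrophage or lymphocyte markers reached a group mean of 4, WT1 of the mesothelial markers averaged 6.05 in omental fat at 28 days, and the part of these cells in the results was not tested.

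SOCS7, a SOCS protein that acts as an adaptor in growth factor and insulin signalling, was lower in sternal fat at 28 days. It had 2.79, 3.49, 2.65, 3.06 and 3.48 in sternal arrays I, J, M, N and O, against 4.06 to 4.64 with a median of 4.25 in the other depots. Every sternal array lay below every other array of that age. The difference was -1.18 (SE 0.11, limma adjusted p = 2.69e-07), and with 1 array left out it stayed between -1.28 and -1.07. SOCS7 was higher than in the other depots in omental fat by 0.44 (adjusted p = 0.0188) and in perirenal fat by 0.45 (adjusted p = 0.0207). Each of these contrasts holds the low sternal arrays on its other side. The omental call was lost without omental array I (adjusted p = 0.0819) and after quantile normalization (difference 0.33, adjusted p = 0.146), and the perirenal call without perirenal array I, M or K (adjusted p of 0.0674 to 0.0941) and with the replicate number as a block (adjusted p = 0.111).

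JAK2 was low in the same sternal arrays. It had 2.93, 2.95, 3.37, 2.88 and 3.62 in sternal arrays I, J, M, N and O, against 3.62 to 5.01 with a median of 4.14 in the other depots. Sternal array O touched the lowest of the others. The difference for JAK2 was -1.01 (limma adjusted p = 1.04e-05). TNFRSF21, the death receptor also called DR6, had 2.49, 3.16, 3.16, 2.49 and 2.49 in the sternal arrays, against 3.16 to 3.96 elsewhere, with a difference of -0.64 (SE 0.13, adjusted p = 0.00135), and these values all lay below 4.

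The 6 skeletal muscle markers summed to 17.19 to 49.60 in sternal fat at 28 days, against 17.14 to 28.67 in the other depots. CKM was above 4 in sternal arrays J, N and O and not in I and M, and without the 9 sternal or subcutaneous arrays whose CKM passed 4 SOCS7, JAK2, TNFRSF21, STAT3 and TNFAIP1 were still called lower in sternal fat. In all 14 members were called in sternal fat at 28 days, 3 higher and 11 lower, where 20.1% of all probe sets were called, 1.65% higher and 18.4% lower. The share of calls that were higher was 8.2% over all probe sets as deposited and 62.9% after quantile normalization, after which 4 members were higher and 3 lower. The lower calls kept by quantile normalization were those of JAK2, SOCS7 and TNFRSF21. The 6 fibroblast markers summed to 44.71 to 51.43 in sternal fat at 28 days, against 38.53 to 51.73 in the other depots, and the part of these cells was not tested. For JAK1, quantile normalization added a call in sternal fat, a difference of 0.41 (adjusted p = 0.00508). Without overlap were 3 members, SOCS7, CXCR1 and IRF2BP1, as were 2.14% of all probe sets.

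STAT3, the factor activated through IL6ST in the cell, was lower in sternal fat at 28 days. It had 3.92, 4.72, 4.05, 4.50 and 5.24 in sternal arrays I, J, M, N and O, against 4.69 to 5.52 with a median of 4.79 elsewhere. Arrays J and O lay within the range of the other depots. The difference of -0.44 (SE 0.14, limma adjusted p = 0.0273) was lost without sternal array I (-0.30, adjusted p = 0.141), M (-0.33, adjusted p = 0.119) or N (-0.44, adjusted p = 0.0557) and fell to -0.01 after quantile normalization (adjusted p = 0.971). On 9 of the 49 arrays STAT3 had 1 repeated value, 4.75.

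The other sternal calls at 28 days were small. The chemokine CXCL2 was higher by 0.19, TNFRSF14, the receptor of LIGHT, by 0.21 and the IL1 receptor antagonist IL1RN by 0.23, and all their values were below 4. All 3 were lost without the 9 sternal or subcutaneous arrays whose CKM passed 4, where the difference of TNFRSF14 was 0.003 (adjusted p = 0.952). Leaving out 1 sternal array also ended these calls: I or N for CXCL2 (adjusted p of 0.0854 and 0.172, with a difference of 0.08 without N), J or O for TNFRSF14 (adjusted p of 0.0523 and 0.0547, with 0.13 without O) and N for IL1RN (adjusted p = 0.050). The replicate block ended that of CXCL2 (adjusted p = 0.0608). TNFAIP1, a substrate adaptor of an ubiquitin ligase, was lower by 0.49 (adjusted p = 0.0294) but by 0.31 without sternal array M (-0.31, adjusted p = 0.153), and the block (adjusted p = 0.109) and quantile normalization (adjusted p = 0.38) ended its call.

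IRF1 (-0.21), SOCS1 (-0.22), NFKBIL1 (-0.23), IRF2BPL (-0.26), CXCR1 (-0.19) and IL34 (-0.23) made up the rest of the lower sternal calls. None of these 6 calls was kept after quantile normalization, which turned CXCR1 to 0.10 and IL34 to 0.08, or without the arrays with CKM above 4, and a trend in the prior spread ended those of CXCR1 (adjusted p = 0.0588) and IL34 (adjusted p = 0.0555). Each was lost without at least 1 sternal array: IRF1 without J or O (adjusted p up to 0.0639), SOCS1 without I (0.0624), NFKBIL1 without I, J, M or O (up to 0.115), IRF2BPL without O (0.0643), CXCR1 without I, J or N (up to 0.0793) and IL34 without I, J, N or O (up to 0.135). The block also ended the call of SOCS1 (adjusted p = 0.0521).

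Subcutaneous fat at 28 days carried the highest JAK1. The arrays H, I, J, M and N had 5.55, 5.05, 5.30, 5.30 and 5.15, against 3.55 to 5.27 with a median of 4.61 in the other depots, and the overlap came from perirenal fat, with 4.86 to 5.27. The difference for JAK1 was 0.72 (limma adjusted p = 6.47e-05) in subcutaneous fat and 0.55 (adjusted p = 0.00119) in perirenal fat. The JAK1 order at 28 days was therefore subcutaneous (mean 5.27), perirenal (5.13), sternal (4.67), epicardial (4.54) and omental (3.85), with no overlap between omental fat and the rest, while each of the other neighbours in this order overlapped, sternal and perirenal fat through perirenal array I and sternal array I alone.

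Of the 3 members called in subcutaneous fat at 28 days, all higher, the second was TNFAIP6, where 3.04% of all probe sets were called, 2.58% higher and 0.458% lower. The share of calls that were higher was 84.9% over all probe sets as deposited and 69.1% after quantile normalization. TNFAIP6 encodes TSG-6, a secreted hyaluronan-binding protein induced by TNF and IL1. Its signals were 4.21, 6.39, 6.02, 4.75 and 4.57 in arrays H, I, J, M and N, against 3.80 to 5.45 with a median of 3.96 in the other depots. Arrays I and J lay above every other array, and on 19 of all 49 arrays TNFAIP6 had 1 repeated value, 3.96. The difference of 1.08 (SE 0.25, limma adjusted p = 0.0157) was 0.78 without array I (adjusted p = 0.0684) and 0.88 without array J (adjusted p = 0.0873), and it was 0.98 (adjusted p = 0.0914) without the 9 sternal or subcutaneous arrays whose CKM passed 4. The 6 fibroblast markers summed to 47.99 to 51.73 in subcutaneous fat at 28 days, against 38.53 to 51.43 in the other depots, with COL1A1 higher by 1.77 and DCN by 0.90, and their part in the calls of JAK1 and TNFAIP6 was not tested. The third was IRF2BPL, higher by 0.32 (adjusted p = 0.0137), a call that ended without array J (adjusted p = 0.0572) or M (adjusted p = 0.0516), with the block (adjusted p = 0.0732) and without the CKM arrays (adjusted p = 0.25).

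**Figure D2:**
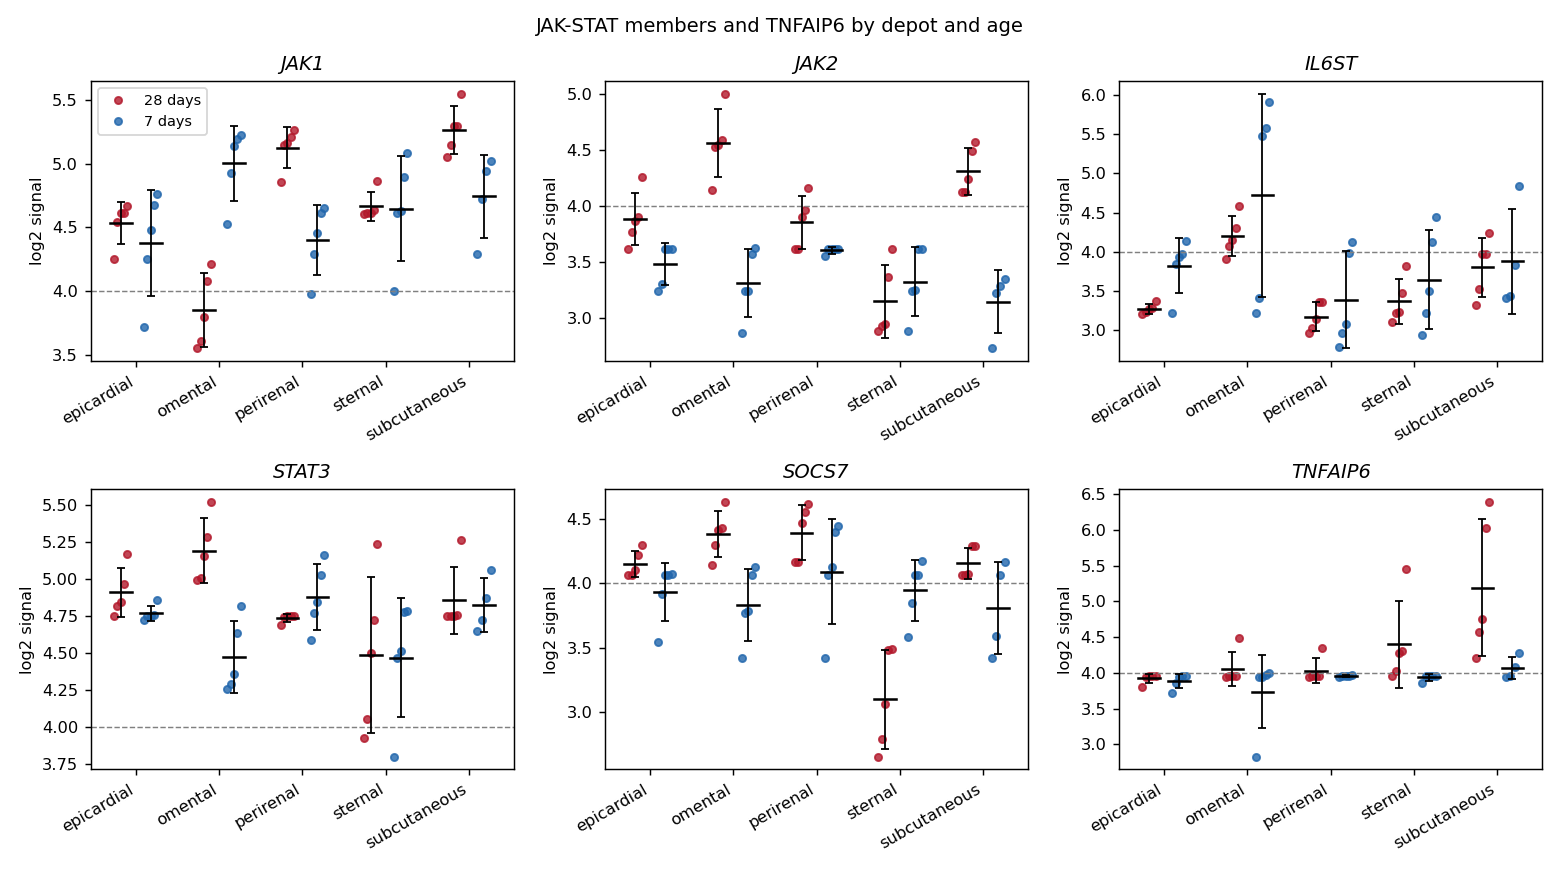
Log2 signal (vertical axis) of JAK1, JAK2, IL6ST, STAT3, SOCS7 and TNFAIP6 on each array, by depot, with 28 days (red) left of 7 days (blue). Points are arrays, bars are the mean ± SD (n = 5, or 4 in subcutaneous fat at 7 days) and the dashed line marks 4. JAK1 is lowest in omental fat at 28 days. At that age JAK2 is above 4 on all omental and all subcutaneous arrays, and SOCS7 is lowest in sternal fat.

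Perirenal fat at 28 days had 8 members called, 7 higher and 1 lower, where 2.87% of all probe sets were called higher and 0.487% lower. The share of higher calls was 85.5% over all probe sets as deposited and 75.2% after quantile normalization, after which 5 members were higher and 1 lower. Next to JAK1 and SOCS7, IRF1, the transcription factor first found on the interferon beta promoter, had 3.41, 3.05, 3.62, 3.62 and 3.53 in perirenal arrays I, J, M, N and K, against 2.88 to 3.29 with a median of 3.05 in the other depots. The perirenal arrays other than J lay above all others. The difference for IRF1 was 0.40 (SE 0.06, limma adjusted p = 0.000661), with all values near the lowest signal. The 6 fibroblast markers summed to 38.53 to 43.72 in perirenal fat at 28 days, against 43.85 to 51.73 in the other depots, without overlap and with COL1A1 lower (-2.87), and their part in the perirenal calls was not tested.

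IRF2BP2, a partner of IRF2 that acts as a transcriptional corepressor, was well above the lowest signal on every array. It had 10.39, 10.20, 10.53, 10.35 and 10.59 in perirenal arrays I, J, M, N and K, against 9.85 to 10.33 with a median of 10.03 in the other depots at 28 days. The difference of 0.37 (SE 0.08, limma adjusted p = 0.00652) was 0.35 with the replicate block (adjusted p = 0.0662) and 0.26 after quantile normalization (adjusted p = 0.296). IL6ST was lower in perirenal fat, with 3.36, 3.36, 3.14, 2.95 and 3.03 against 3.09 to 4.59 elsewhere, which includes the high omental arrays. Its difference of -0.49 (adjusted p = 0.0264) was lost without perirenal array M, N or K (adjusted p of 0.0728 to 0.0948), with the block (adjusted p = 0.0888) and without the arrays with CKM above 4 (adjusted p = 0.0634).

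The remaining perirenal calls at 28 days were IL2RB, a chain of the IL2 and IL15 receptors (0.35, adjusted p = 0.0358), IL18RAP, a chain of the IL18 receptor (0.23, adjusted p = 0.0186), and SOCS1, an inhibitor of JAK kinases (0.23, adjusted p = 0.0443), all near the lowest signal. IL2RB was lost without perirenal array J, M or K, omental array O or subcutaneous array J (adjusted p up to 0.177) and with the block (adjusted p = 0.334), and IL18RAP without perirenal array N (difference 0.14, adjusted p = 0.0559). SOCS1 was lost without any 1 of 15 of the 25 arrays (adjusted p up to 0.162), with the block (adjusted p = 0.228), after quantile normalization (adjusted p = 0.0922) and with a trend in the prior spread (adjusted p = 0.0692). IL2RB and IL18RAP also missed the threshold without the arrays with CKM above 4.

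Epicardial fat at 28 days had 2 members called, both higher, where 3.24% of all probe sets were called, 2.74% higher. The share of higher calls was 84.4% over all probe sets as deposited and 57.1% after quantile normalization, after which 1 member was higher. IL23R, a chain of the IL23 receptor, was higher by 0.29 (adjusted p = 0.0454) and was lost without any 1 of 19 of the 25 arrays (adjusted p up to 0.172) and after quantile normalization (adjusted p = 0.0712). The antisense transcript IL12A-AS1 was higher by 0.21 (adjusted p = 0.0175), a call that ended without epicardial array L or N (difference 0.14 without L, adjusted p up to 0.0849) and with the block (adjusted p = 0.184). Both had all values below 4 here, and both missed the threshold without the CKM arrays of sternal and subcutaneous fat. The epicardial arrays, of which 4 of 5 had CKM above 4, stay in that fit, and the part of muscle RNA in them was not tested.

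At 7 days, in omental fat and in subcutaneous fat none was called by limma, with 11 and 7 members at an unadjusted p under 0.05 and 0 each with a trend in the prior spread, where 1.54% and 1.53% of all probe sets were called. IL6ST spread widely in omental fat at 7 days, with 3.22, 5.58, 5.92, 5.48 and 3.40 in arrays A, D, G, C and E, against 2.78 to 4.84 in the other depots. Arrays D, G and C lay above every other array and A and E within the range of the others. The difference for IL6ST was 1.04 (SE 0.38, limma adjusted p = 0.214) and was not called after the adjustment over all probe sets.

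Perirenal fat at 7 days had 6 members called, all higher, where 5.11% of all probe sets were called, 4.58% higher. The share of higher calls was 89.5% over all probe sets as deposited and 70.3% after quantile normalization, after which 2 members were higher. IRF2BPL, the close relative of IRF2BP2, had 10.52, 10.76, 10.64, 10.64 and 10.85 in perirenal arrays A, D, G, B and C, against 9.95 to 10.65 with a median of 10.40 in the other depots. The perirenal range overlapped with the upper end of the others. The difference of 0.40 (SE 0.09, limma adjusted p = 0.00835) was 0.34 after quantile normalization (adjusted p = 0.0738). The fibroblast markers summed to 38.23 to 42.09 in perirenal fat at 7 days, against 39.99 to 49.03 in the other depots, and their part was not tested.

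The other perirenal calls at 7 days lay at or near the lowest signal. IRF9, the subunit that brings the interferon-activated STAT complex to DNA, had 2.60 to 3.08 with a median of 2.94 in perirenal fat, against 2.49 to 2.73 with a median of 2.60 elsewhere (difference 0.29, SE 0.05, adjusted p = 0.00168). NFKBIL1, an IkappaB-like protein, had 3.39, 2.80, 3.40, 2.80 and 3.30 in perirenal arrays A, D, G, B and C, against 2.49 to 2.88 (difference 0.40, adjusted p = 0.00469). In both, array D lay among the other depots, and in NFKBIL1 array B did too. JAK3, the kinase of the common gamma chain receptors, was higher by 0.30 (adjusted p = 0.0242) and the chemokine CCL24 by 0.43 (adjusted p = 0.0228). The sixth, the probe set with several TNF superfamily symbols, was higher by 0.19 (adjusted p = 0.0445). These 3 calls ended with the block, after quantile normalization and without the CKM arrays. Leaving out perirenal array D, G or B ended that of JAK3 (adjusted p up to 0.0967), A, D or B that of CCL24 (up to 0.101, with a difference of 0.30 without D) and any 1 of 21 of the 24 arrays that of the sixth (up to 0.129, with 0.10 without perirenal array C).

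Epicardial and sternal fat at 7 days had 1 member called each, where 4.07% and 1.20% of all probe sets were. The share of higher calls over all probe sets was 82.3% in epicardial and 22.8% in sternal fat as deposited and 49.6% and 59.8% after quantile normalization, with 1 member higher in each. All 5 epicardial arrays at 7 days had CKM above 4, and its part was not tested. SOCS2, an inhibitor of growth hormone signalling, had 2.49, 2.87, 2.92, 2.75 and 2.78 in epicardial arrays A, D, G, C and E, against 2.49 to 2.85 in the others, where its median was the lowest value, 2.49 (difference 0.25, SE 0.05, adjusted p = 0.00665). IL15, a cytokine abundant in muscle, had 3.39, 3.07, 3.11, 2.87 and 2.49 in sternal arrays D, F, G, B and E, against 2.49 to 2.84 elsewhere. Arrays D, F, G and B lay above all the other depots. Its difference of 0.42 (SE 0.09, adjusted p = 0.0182) was lost without array D (0.32, adjusted p = 0.0544), F (adjusted p = 0.0503) or G (adjusted p = 0.0734), with the block (adjusted p = 0.0979) and without the arrays with CKM above 4 (adjusted p = 0.1), a gene that was above 4 in sternal array D alone.

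**Figure D3:**
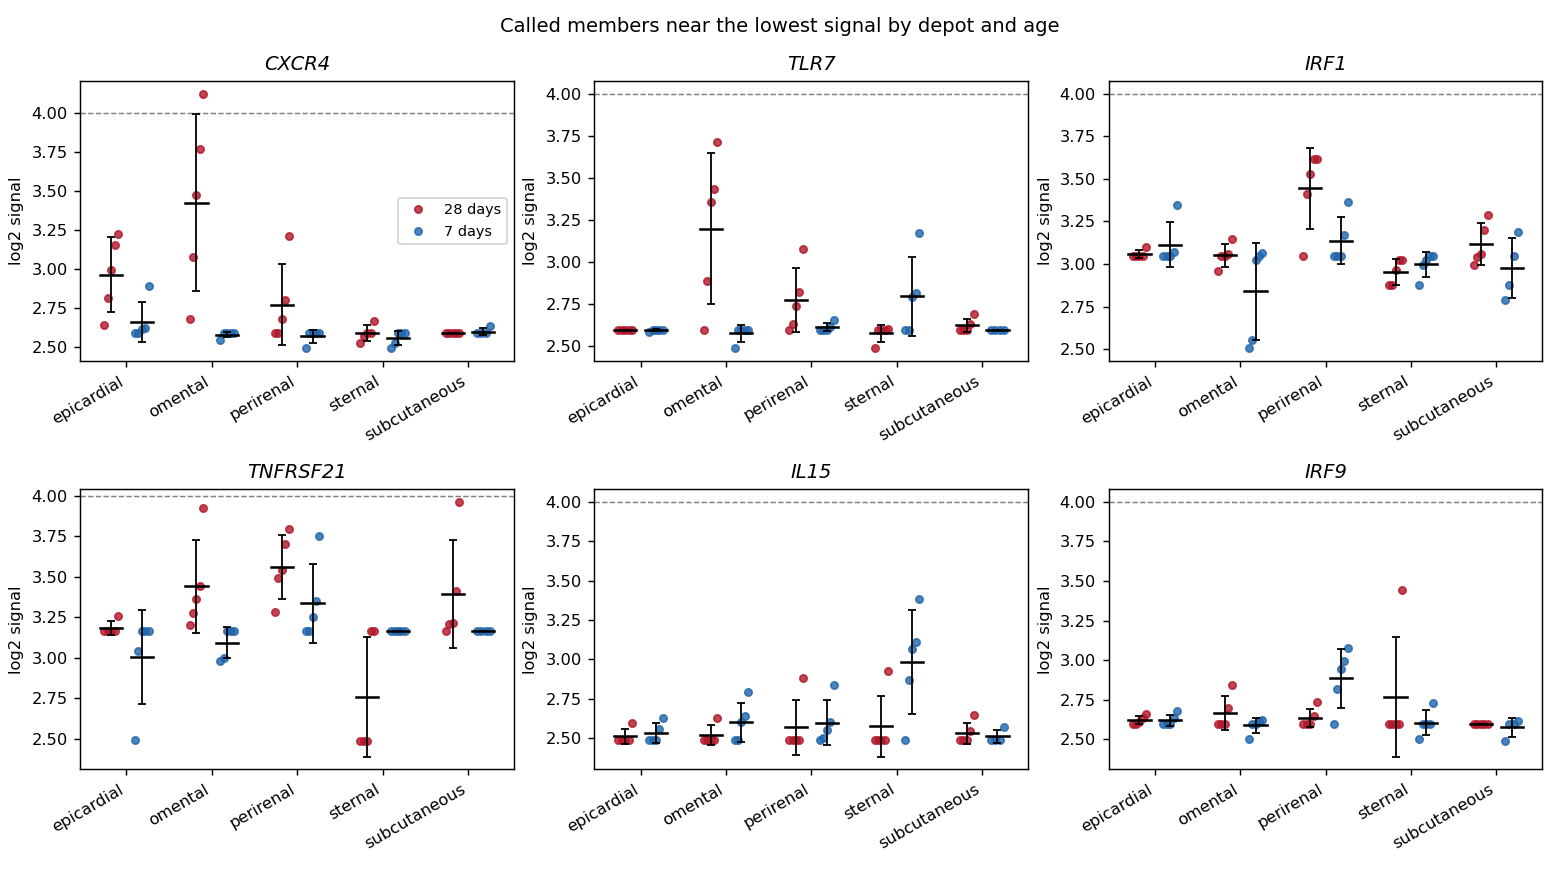
Log2 signal (vertical axis) of 6 called members near the lowest signal, CXCR4, TLR7, IRF1, TNFRSF21, IL15 and IRF9, on each array by depot, with 28 days (red) left of 7 days (blue). Points are arrays, bars are the mean ± SD (n = 5, or 4 in subcutaneous fat at 7 days) and the dashed line marks 4, which 1 array of CXCR4 passes.

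Per the study's methods, RNA was isolated from more tissue at 28 days than at 7 days. Age and the amount of tissue therefore cannot be told apart in the changes with age. Between 28 and 7 days 8 members were called in omental fat, 7 higher and 1 lower, where 14.6% of all probe sets were called, 13.5% higher and 1.03% lower. In subcutaneous fat it was 8, 7 higher and 1 lower, against 9.25% of all probe sets, 7.68% and 1.57% by direction. In sternal fat it was 6, 3 higher and 3 lower, against 6.37%, 2.47% and 3.89% by direction, and in perirenal fat 5, 4 higher and 1 lower, against 9.32%, 6.23% and 3.09% by direction. In epicardial fat none was called, with 10 members at an unadjusted p under 0.05, 0 with a trend in the prior spread and 5.84% of all probe sets called, 4.21% higher and 1.63% lower. After quantile normalization the members called higher and lower were 3 and 2 in omental, 3 and 1 in subcutaneous, 3 and 4 in sternal and 3 and 1 in perirenal fat. Over all probe sets the share of higher calls was then 51.3%, 50.5%, 45.5% and 53.2% in those depots, and 53.1% in epicardial fat, where it was 92.9%, 83.1%, 38.8%, 66.9% and 72.2% as deposited.

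JAK1 had 3.55 to 4.21 with a median of 3.80 in omental fat at 28 days, against 4.52, 4.93, 5.14, 5.23 and 5.20 in arrays A, D, G, C and E at 7 days. The ages did not overlap, and the change was -1.16 (SE 0.17, limma adjusted p = 6.66e-06). In perirenal fat JAK1 changed by 0.73 (adjusted p = 0.00343), also without overlap, with 4.86 to 5.27 at 28 days against 4.61, 3.98, 4.66, 4.29 and 4.46 in arrays A, D, G, B and C at 7 days. In subcutaneous fat the change of JAK1 was 0.53 (adjusted p = 0.0628), with no overlap and short of the threshold. The change with age of JAK1 differed between the depots (F test, adjusted p = 9.90e-06).

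JAK2 rose with age in 2 depots. In omental fat it had 4.14 to 5.01 at 28 days, against 3.57, 2.87, 3.25, 3.25 and 3.63 in arrays A, D, G, C and E at 7 days, a change of 1.25 (SE 0.16, limma adjusted p = 3.11e-07). In subcutaneous fat it had 4.13 to 4.57 at 28 days, against 2.73, 3.22, 3.35 and 3.29 in arrays A, F, G and E at 7 days, a change of 1.17 (adjusted p = 1.58e-05). Neither depot overlapped between the ages, and both changes were kept in all fits with 1 array left out. All JAK2 values at 7 days lay below 4. The changes of JAK2 differed between the depots (adjusted p = 4.34e-05).

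STAT3 changed with age in omental fat, with 5.52, 5.01, 4.99, 5.16 and 5.29 in arrays I, J, M, N and O at 28 days, against 4.36, 4.82, 4.29, 4.63 and 4.25 in arrays A, D, G, C and E at 7 days. The ages did not overlap. The change was 0.72 (SE 0.17, limma adjusted p = 0.00183), and after quantile normalization it was 0.33 (adjusted p = 0.264). SOCS7 changed in opposite directions, by -0.85 in sternal fat (adjusted p = 0.000448) and by 0.55 in omental fat (adjusted p = 0.018). Its sternal arrays had 2.65 to 3.49 at 28 days, against 4.17, 4.06, 3.58, 4.06 and 3.85 in D, F, G, B and E at 7 days, without overlap. The omental change of SOCS7 was lost without array E at 7 days (adjusted p = 0.079), without array I at 28 days (adjusted p = 0.0589) and after quantile normalization (0.19, adjusted p = 0.611), while the sternal one was kept in those fits. The change of SOCS7 with age differed between the depots (adjusted p = 0.000383).

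CXCR4 and TLR7 rose with age in omental fat, with group means below 4 at both ages. CXCR4 had 2.68 to 4.12 at 28 days, against 2.58, 2.54, 2.58, 2.58 and 2.58 at 7 days, a change of 0.85 (SE 0.14, limma adjusted p = 1.87e-05). TLR7 had 2.60 to 3.71 at 28 days, against 2.60, 2.49, 2.60, 2.60 and 2.60 at 7 days, a change of 0.62 (SE 0.11, adjusted p = 6.96e-05). CXCR4 did not overlap, and TLR7 did through array O alone. The 6 endothelial markers summed to 17.46 to 18.62 in omental fat at 28 days, against 16.05 to 16.31 at 7 days, and the 8 lymphocyte markers to 21.81 to 23.12, against 20.94 to 21.81. Their part in these changes was not tested. The changes of CXCR4 and TLR7 differed between the depots (adjusted p of 0.0107 and 0.00263). TNFAIP1 (0.58, adjusted p = 0.0114) and the chemokine receptor CXCR1 (0.48, adjusted p = 0.00289) were the other omental calls, and both missed the threshold after quantile normalization (adjusted p of 0.346 and 0.39). That of TNFAIP1 was also lost without array A at 7 days (adjusted p = 0.0668) or array M at 28 days (adjusted p = 0.0752). Over all members 9 did not overlap between the ages in omental fat, as 11.6% of all probe sets did not. In subcutaneous fat it was 7 members and 8.05% of all probe sets, in perirenal fat 4 and 8.86%, in sternal fat 2 and 3.53% and in epicardial fat 2 and 4.60%.

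IRF2BP2 was higher at 28 days in perirenal, sternal and subcutaneous fat. In perirenal fat it had 10.20 to 10.59 at 28 days, against 9.21, 9.68, 9.54, 9.56 and 9.85 in arrays A, D, G, B and C at 7 days, a change of 0.85 (SE 0.12, limma adjusted p = 1.24e-06). In sternal fat it had 9.85 to 10.16 at 28 days, against 8.97 to 9.57 at 7 days, a change of 0.68 (adjusted p = 5.45e-05), and in subcutaneous fat 9.89 to 10.18, against 9.26 to 9.87, a change of 0.56 (adjusted p = 0.00236). The ages did not overlap in these depots, and all 3 calls were kept in every alternative fit. In omental fat the IRF2BP2 change was 0.31 (adjusted p = 0.0624), again without overlap. The changes differed between the depots (adjusted p = 0.019). The 6 fibroblast markers summed to 44.71 to 51.43 in sternal fat at 28 days, against 39.99 to 42.82 at 7 days, without overlap and with COL1A1 higher by 3.85 (adjusted p = 3.72e-08), and their part in the sternal changes with age was not tested. IRF2BPL changed in subcutaneous fat alone among the calls, with 10.55 to 10.82 at 28 days against 9.95 to 10.40 at 7 days (0.51, adjusted p = 0.00166), a call that ended without the CKM arrays (0.53, adjusted p = 0.0789). That fit keeps only array F of subcutaneous fat at 7 days and assumes that it varies like the other groups.

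Of the NFKB members, NFKBIA and NFKBIZ had signals above 4 on all 49 arrays, while NFKBIB and NFKBIL1 reached 4 on none, with highest values of 3.12 and 3.48. NFKBIA, the IkappaB protein that holds NF-kappaB in the cytoplasm and is itself an NF-kappaB target, was called in none of the 18 comparisons by limma or with a trend in the prior spread, and had an unadjusted p under 0.05 in 1. Its lowest adjusted p, 0.0995, was that of the change with age in sternal fat, where it had 6.20, 4.65, 5.49, 7.36 and 6.01 in arrays I, J, M, N and O at 28 days, against 4.56 to 5.59 at 7 days (0.76, SE 0.28). Array N had the highest NFKBIA value of all 49 arrays, and array J lay within the range of the 7 day arrays. In subcutaneous fat NFKBIA had 6.03 to 6.19 at 28 days, against 5.59 to 5.62 at 7 days. These ages did not overlap, and the change was 0.48 (SE 0.29, limma adjusted p = 0.356). The SE rests on a spread shared by all 10 groups, not on the subcutaneous arrays alone.

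NFKBIZ encodes IkappaB zeta, a nuclear member of that family which is induced by IL1 and Toll-like receptor signals. In sternal fat it had 5.26, 5.13, 5.66, 9.50 and 8.42 in arrays I, J, M, N and O at 28 days, against 5.56, 5.12, 5.56, 4.80 and 4.98 in D, F, G, B and E at 7 days. Arrays N and O were the highest of all 49 arrays, and the other 3 lay between 5.13 and 5.66 at 28 days, against 4.80 to 5.56 at 7 days. The change of NFKBIZ was 1.59 (SE 0.49, limma adjusted p = 0.0419). It was 0.92 without array N (adjusted p = 0.27), 1.19 without array O (adjusted p = 0.192) and 0.35 without the 9 sternal or subcutaneous arrays whose CKM passed 4, which leaves out N and O together (adjusted p = 0.95). The call was also lost without array F, G, B or E at 7 days (adjusted p of 0.0507 to 0.0946). CKM was 4.51 in array N and 11.32 in array O, and 12.72 in array J, in which NFKBIZ was 5.13.

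**Figure D4:**
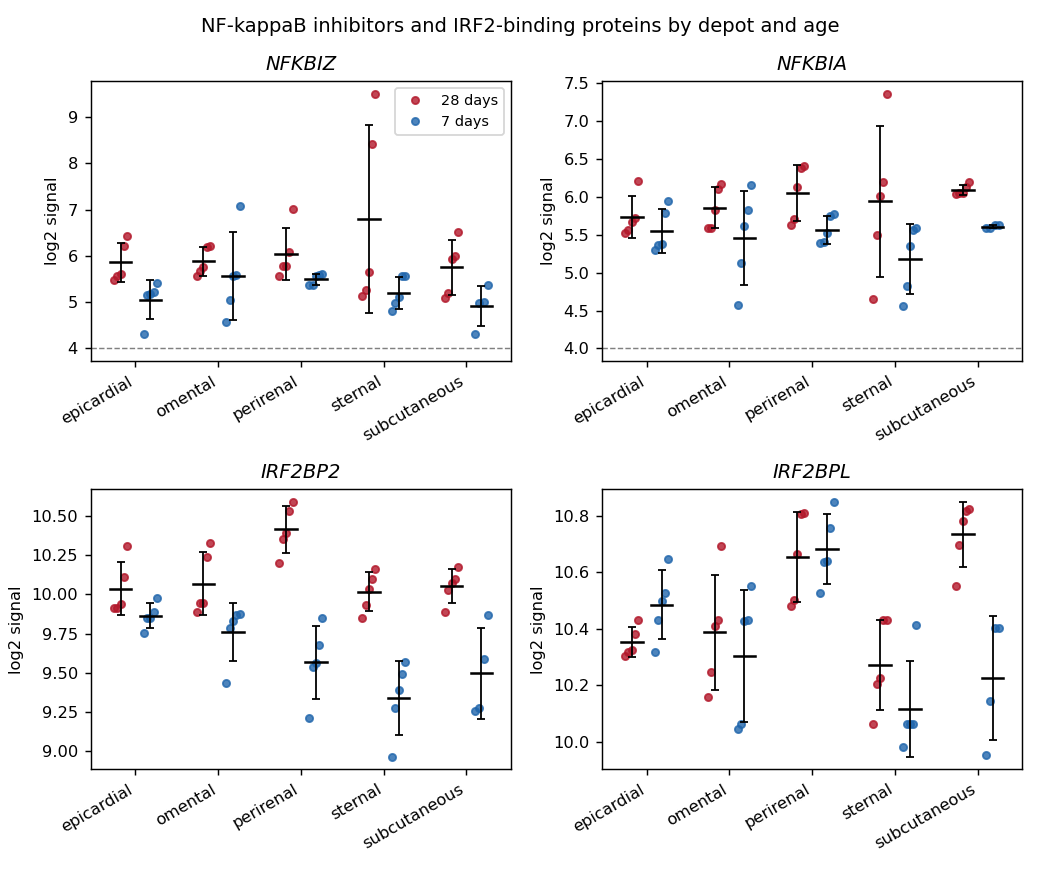
Log2 signal (vertical axis) of NFKBIZ, NFKBIA, IRF2BP2 and IRF2BPL on each array by depot, with 28 days (red) left of 7 days (blue). Points are arrays, bars are the mean ± SD (n = 5, or 4 in subcutaneous fat at 7 days) and the dashed line marks 4. NFKBIZ is highest in 2 sternal arrays at 28 days, and IRF2BP2 does not overlap between the ages in perirenal, sternal and subcutaneous fat.

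TNFAIP6 was higher with age in subcutaneous fat, with 4.21 to 6.39 at 28 days against 4.28, 3.94, 3.96 and 4.08 in arrays A, F, G and E at 7 days. The ages overlapped through array H. The change of 1.12 (SE 0.27, limma adjusted p = 0.0053) was 0.86 after quantile normalization (adjusted p = 0.0634) and 1.11 without the CKM arrays (adjusted p = 0.153). The other calls of subcutaneous fat were near the lowest signal. TRAF3, an adaptor of TNF and Toll-like receptors, was higher by 0.45 (adjusted p = 0.00908), but by 0.22 without array F at 7 days (adjusted p = 0.133). IL17RC, a chain of the IL17 receptor, was higher by 0.38 (adjusted p = 0.0121), and by 0.24 without array F at 7 days (adjusted p = 0.136) and 0.29 without array N at 28 days (adjusted p = 0.0579). Both missed the threshold after quantile normalization. TLR4, the receptor of bacterial lipopolysaccharide, was higher by 0.19 (adjusted p = 0.0344), which was lost without array F or G at 7 days or H or M at 28 days (adjusted p up to 0.166), with a trend in the prior spread (adjusted p = 0.0516), after quantile normalization and without the CKM arrays.

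IL37, an anti-inflammatory member of the IL1 family, had 2.94 to 2.99 in subcutaneous fat at 28 days, against 2.86 to 4.22 at 7 days. The difference of -0.49 (adjusted p = 0.0302) was -0.22 without array A at 7 days (adjusted p = 0.339), -0.39 without array E (adjusted p = 0.127) and 0.09 without the CKM arrays, which include A and E. In sternal fat IL15 had 2.49, 2.49, 2.49, 2.49 and 2.92 at 28 days, against the values from 2.49 to 3.39 at 7 days given above. The change of -0.41 (SE 0.10, limma adjusted p = 0.00451) was kept in all alternative fits that held IL15. The fit with a mean of at least 4 leaves IL15 out. IL1RN (0.25, adjusted p = 0.0142) was lost without sternal array I (adjusted p = 0.0606) or N (adjusted p = 0.0904) at 28 days. IL17C (-0.38, adjusted p = 0.0474) was lost without any 1 of 8 of the 10 arrays (adjusted p up to 0.296), with a difference of -0.22 without array G at 7 days, and in 3 other fits.

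In perirenal fat the other changes with age were those of IRF1 (0.31, adjusted p = 0.0317), NFKBIL1 (-0.31, adjusted p = 0.0424) and the antisense transcript TNFRSF14-AS1 (0.34, adjusted p = 0.0176). IRF1 was lost without array D, G or B at 7 days or M, N or K at 28 days (adjusted p up to 0.109) and after quantile normalization (adjusted p = 0.123). NFKBIL1 was lost without array A, G or C at 7 days or I, M, N or K at 28 days (adjusted p up to 0.173) and without the CKM arrays (adjusted p = 0.077). TNFRSF14-AS1 was lost without array I (0.24, adjusted p = 0.112) or N (adjusted p = 0.0694) at 28 days. The changes with age of 8 members differed between the depots, where 9.17% of all probe sets did: JAK1, JAK2, SOCS7, CXCR4, TLR7, IRF2BP2, IRF2BPL (adjusted p = 0.0237) and NFKBIL1 (adjusted p = 0.0345).

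**Figure D5:**
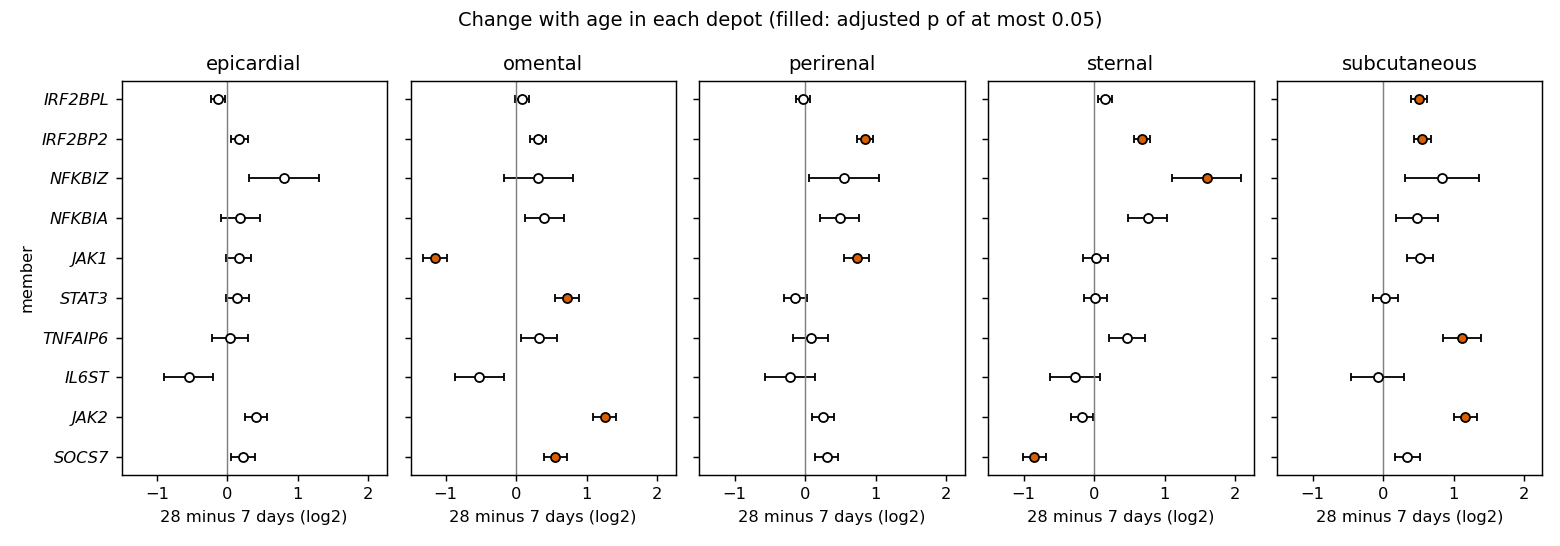
Change with age (horizontal axis, 28 minus 7 days, log2) of the 10 members that reach 4 in some group, in each of the 5 depots. Points are limma estimates, bars are ± 1 SE, and filled points have an adjusted p of at most 0.05. JAK1 is lower at 28 days in omental fat (-1.16) and higher in perirenal fat (0.73), JAK2 is higher in omental and subcutaneous fat, and SOCS7 is lower in sternal fat (-0.85).

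Other genes of the same pathways, outside the member families, were counted from 3 lists. Calls of single genes in these lists, or among the marker genes, were not followed in the alternative fits. Of 31 measured genes of the JAK-STAT pathway 6 averaged at least 4. In sternal fat at 28 days 11 of the 31 were called lower and 1 higher, against 18.4% lower and 1.65% higher among all probe sets, and the median difference was -0.13 where that of all probe sets was -0.07. Of the sternal calls over all probe sets 8.2% were higher as deposited and 62.9% after quantile normalization. The most lowered were PIAS2 (-0.90), which modifies STAT activity, PIM2 (-0.75), a kinase induced by STATs, BCL2L1 (-0.68) and EPOR (-0.68). In perirenal fat at 28 days 5 of 31 were called, all higher, against 2.87% of all probe sets, among them the growth hormone receptor GHR (1.05, adjusted p = 0.00896) and the erythropoietin receptor EPOR (0.97, adjusted p = 0.00119), both of which signal through JAK2. At 7 days 4 of 31 were called higher in perirenal fat, against 4.58% of all probe sets, led by PIAS2 (0.75) and EPOR (0.43). PTPN11 in subcutaneous fat at 28 days (0.45) and BCL2L1 in epicardial fat at 7 days (0.92) were higher as well. GHR was lower in epicardial fat at 28 days (-1.01, adjusted p = 0.0114) and at 7 days (-0.99, adjusted p = 0.00313). CKM was above 4 on 9 of the 10 epicardial arrays, and the part of muscle RNA in the epicardial calls of the 3 lists was not tested. Between 28 and 7 days 7 were called higher and 1 lower in omental fat, led by BCL2L1 (1.18) and PIAS2 (1.11), where 13.5% of all probe sets were called higher and 1.03% lower. In perirenal fat 7 were called higher and 2 lower, led by GHR (1.19) and EPOR (0.99), against 6.23% and 3.09% of all probe sets, and in subcutaneous fat 4 higher, led by EPOR (0.82), against 7.68%. In sternal fat PIM2 was lower with age (-0.48, adjusted p = 0.0383), and in epicardial fat CREBBP (0.46) and PIAS1 (0.37) were higher. After quantile normalization the share of higher calls with age over all probe sets was 51.3% in omental, 53.2% in perirenal and 50.5% in subcutaneous fat, where it was 92.9%, 66.9% and 83.1% as deposited.

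Of 23 measured genes of the NF-kappaB and Toll-like receptor pathway, 1 averaged at least 4, the ubiquitin-conjugating enzyme UBE2N that makes the chains which activate the kinase TAK1. UBE2N was higher in omental fat at 28 days (0.76, adjusted p = 0.000316) and lower in sternal fat (-0.54, adjusted p = 0.00186). TAK1 itself, encoded by MAP3K7, was called in the same directions, by 0.77 and -0.58, and averaged below 4. Of the 23, 3 were called higher in omental fat and 6 lower in sternal fat at 28 days, those in sternal fat including TANK (-0.73), CYLD (-0.55) and MAP3K7, where 4.76% of all probe sets were called higher in omental and 18.4% lower in sternal fat. Over all probe sets the share of higher calls was 93% in omental and 8.2% in sternal fat as deposited. After quantile normalization these shares were 75.9% and 62.9%. In perirenal fat MAP3K7 was lower (-0.42, adjusted p = 0.046) and RNF31, a subunit of the linear ubiquitin ligase, higher (0.33, adjusted p = 0.000287) at 28 days, and RNF31 was higher there at 7 days as well (0.42, adjusted p = 0.000849). The other calls between depots were PELI1, higher in subcutaneous fat at 28 days (0.47), and TAB2, higher in epicardial fat at 7 days (0.35). Between the ages 5 were called higher in omental fat, led by MAP3K7 (0.83) and the deubiquitinase CYLD (0.64), against 13.5% of all probe sets, while TANK was lower in sternal fat (-0.67, adjusted p = 0.00513) and PELI1 higher in subcutaneous fat (0.42, adjusted p = 0.0417).

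The 26 measured interferon-stimulated genes all averaged below 4. At 7 days none was called in any depot against the others. At 28 days SAMHD1, an enzyme that breaks down nucleotides and restricts viruses, was higher in omental fat (0.41, limma adjusted p = 3.42e-05). TRIM25 was higher in perirenal fat (0.34, adjusted p = 0.0213). PSMB10 (-0.46), OASL (-0.19) and SAMHD1 (-0.16) were lower in sternal fat, 3 of 26 where 18.4% of all probe sets were lower. Between the ages 3 were called higher in omental fat, PSMB10 (0.45), SAMHD1 (0.44) and HLA-E (0.35), which is 11.5% of the list where 13.5% of all probe sets were called higher, and 2 in perirenal fat, HLA-C (0.57) and TRIM25 (0.30), which is 7.69% where 6.23% were. OASL was lower with age in sternal fat (-0.32, adjusted p = 0.0493). None of the 3 interferon receptor chains IFNAR1, IFNAR2 and IFNGR2 was called in any of the 18 comparisons by limma or with a trend in the prior spread, and only IFNGR2 had an unadjusted p under 0.05, in 2 of them.

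In all 74 members were called in no comparison, among them SOCS3, IL6R, IL10, IL1B, CCL5, STAT6 and TRAF6. Their highest group means lay between 2.56 and 3.43 except for NFKBIA. The 37 called members were 9 of the 10 that reach 4 in some group and 28 of those near the lowest signal. Of the 68 member differences called between a depot and the others or between the ages, 31 were kept in every fit that left out 1 array. Of these, 25 were kept in every alternative that held them. For changes with age some alternatives stay close to the main fit. The block enters there through a consensus correlation of 0.0106. The fit without the CKM arrays leaves out no omental, perirenal or epicardial array. That a change with age was kept in such fits therefore says little. The alternative with a mean of at least 4 held 21 of the 68.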

How the data were processed

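RNA of 5 lamb adipose depots at 28 and 7 days was hybridised to 49 human expression arrays. Per the study's methods the authors summarised the probe sets with GCRMA, and the deposited values are on the log2 scale. Tool versions: not given in the sources used here. No further scaling was applied to these values. Depots were compared by a model within each age, and ages by a single model of the 10 groups, each fitted to all 10273 probe sets with limma 3.58.1 in R 4.3.3, with Benjamini-Hochberg adjustment over all probe sets and a call at an adjusted p of at most 0.05. The number of arrays limits the precision. The code was tested on simulated data. The members and lists were chosen with earlier results of these data known. All members could be named, and values by array were given for called members by size of the difference and for members with a group mean of at least 6. Alternatives were the replicate number as a block, a mean of at least 4, quantile normalization, a trend and robust prior spread, leaving out the 9 sternal or subcutaneous arrays whose CKM passed 4, and leaving out each array in turn. Gene symbols came from the platform annotation.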

Additional observations from a re-analysis of the deposited data

Results flagged for a closer look

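In 73 values by group of the members that reach 4, 12 had 1 array far from the other arrays of its group. The limit used flags about 1 in 20 groups by chance where values do not repeat. Here many do, with 1 repeated value on 19 arrays for TNFAIP6 and on 9 for STAT3. That rate therefore does not hold, and the 12 cannot be read as an excess. JAK1 had 4.8574 in array I of perirenal fat and 4.8682 in array I of sternal fat, both at 28 days. NFKBIA had 6.2101 in array N of epicardial fat at 28 days. TNFAIP6 had 4.4867 in array M of omental fat, 4.3522 in array N of perirenal fat and 5.4457 in array N of sternal fat, all at 28 days. STAT3 had 4.8582 in array E of epicardial fat at 7 days, 4.688 in array M of perirenal fat at 28 days and 5.2662 in array I of subcutaneous fat at 28 days. NFKBIZ had 4.3129 in array D of epicardial fat at 7 days. IRF2BPL had 10.4119 in array D of sternal fat and IRF2BP2 had 9.4332 in array E of omental fat, both at 7 days.

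The change with age differed between the 5 depots for 8 members by limma's F test. The adjusted p was 9.903e-06 for JAK1, 4.34e-05 for JAK2 and 0.0003828 for SOCS7. It was 0.002627 for TLR7, 0.01075 for CXCR4, 0.019 for IRF2BP2, 0.02369 for IRF2BPL and 0.0345 for NFKBIL1.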

How the results depend on the processing

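Of 68 called member differences 25 were kept in all fits that held them, and 3 turned. After quantile normalization CXCR1 was 0.0955 and IL34 0.0784 in sternal fat at 28 days. Without the 9 sternal or subcutaneous arrays whose CKM passed 4 the change of IL37 in subcutaneous fat was 0.0923. The cause was not tested. With the replicate number as a block, members called were 3 in perirenal and 0 in sternal fat and 1 in the F test at 7 days, and 3 in perirenal fat at 28 days. For changes with age the block enters through a consensus correlation of 0.0106, so that fit stays close to the main one. The labels do not define the numbers as animals, and arrays of 1 number deviated together weakly, with a median correlation of 0.0555 over 72 pairs, of which 18 exceeded 0.1. With a mean of at least 4, which leaves fewer probe sets, the counts were 1 in perirenal and 2 in sternal fat and 2 in the F test at 7 days, 0 in epicardial, 3 in omental, 3 in perirenal and 3 in sternal fat and 6 in the F test at 28 days, and with age 3 in omental, 2 in perirenal, 3 in sternal and 4 in subcutaneous fat and 4 in the difference between depots. After quantile normalization they were 2 in perirenal fat and 3 in the F test at 7 days, 1 in epicardial and 7 in sternal fat at 28 days, and with age 5 in omental and 4 in subcutaneous fat and 5 in the difference between depots. Without the arrays with CKM above 4 they were 4 in epicardial, 3 in sternal and 7 in subcutaneous fat and 10 in the F test at 7 days, and 0 in epicardial, 5 in perirenal, 6 in sternal and 1 in subcutaneous fat and 8 in the F test at 28 days. That fit keeps 1 subcutaneous array at 7 days, assumed to vary like the other groups. With 1 array left out, counts at 7 days were 1 to 2 in epicardial, 0 to 0 in omental, 4 to 8 in perirenal, 0 to 2 in sternal and 0 to 1 in subcutaneous fat and 3 to 6 in the F test. At 28 days they were 1 to 4, 5 to 8, 4 to 9, 8 to 15 and 1 to 5 in those depots and 11 to 16 in the F test. With age they were 0 to 2, 7 to 10, 3 to 7, 3 to 8 and 6 to 14, and 7 to 12 for the difference between depots. Signals near the lowest limit what 101 members can show.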
